A study of Mus musculus with 8 samples.

Results

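A set of 10 genes of macrophage lipid handling was followed across the series: the liver X receptor gene Nr1h3 and its known targets Abca1, Abcg1, Apoe, Lpl and Mylip, and the lipid storage and carrier genes Pparg, Fabp4, Fabp5 and Plin2. They were taken as every row whose symbol equals one of these names, which gave 11 RefSeq transcripts of 9 genes among 19353 transcripts under 17551 symbols. Fabp5 has no row and was not analysed here. The choice was made with the OHT-over-control values of the same 8 libraries known, so those values are given as a description with no test.

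The cells were lineage-negative bone marrow cells of C57BL/6 mice, a preparation enriched for blood stem and progenitor cells, and all 8 libraries are labelled Ring1a-/- Cdkn2a-/-. Control libraries are labelled Ring1b WT and OHT libraries Ring1b KO; the labels' protocols give ethanol or OHT (4-hydroxytamoxifen) for 72 h. There were 4 contexts: NT (labelled as transduced with nothing; its table heads the columns with the word Empty), HOXA9, PML-RARa and MLL-AF9. HOXA9 is a homeobox gene, and PML-RARa and MLL-AF9 are fusion genes of acute leukaemia. Each context has 1 control and 1 OHT library, so no context has a replicate, and the labels do not name the mice, their age or the Cre that OHT acts on. The question was which lipid genes differ once Ring1b, a ubiquitin ligase of the Polycomb complex PRC1, is labelled as lost.

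Liver X receptors (LXRs) are nuclear receptors that bind oxysterols, pair with retinoid X receptors on DNA, and turn on genes that move cholesterol out of the cell. In macrophages these include the cholesterol pumps ABCA1 and ABCG1 and the lipid acceptor apolipoprotein E. PPAR gamma, the product of Pparg, is a related receptor that is bound by fatty acids and drives fatty acid uptake and storage genes, Fabp4 among them.

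Of the 9 genes with a row, 6 have a promoter window in the RefSeq table of build GRCm38.p6 (250 bases before to 50 after a start), which holds 32851 windows. Each window was searched on both strands. The pattern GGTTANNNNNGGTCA, a loose form of the paired motif to which LXRs are known to bind, was picked with the Abca1 promoter in mind, so its match there is no finding. It occurs in 16 windows, or 0.0487%. Among 55 genes of a wider lipid list that have a window, 3 hold it: Srebf1, Fasn and Acsl3. The 250 bases before the start are shown for Abca1 and for the lipid synthesis genes Srebf1 and Fasn, since these 3 carry the same pattern while Abca1 was higher and the other two were lower with OHT. Capitals mark the match, which lies in reverse orientation, 5′ to 3′ on the gene's strand.
Abca1 (chr4:53159896-53160145, minus strand): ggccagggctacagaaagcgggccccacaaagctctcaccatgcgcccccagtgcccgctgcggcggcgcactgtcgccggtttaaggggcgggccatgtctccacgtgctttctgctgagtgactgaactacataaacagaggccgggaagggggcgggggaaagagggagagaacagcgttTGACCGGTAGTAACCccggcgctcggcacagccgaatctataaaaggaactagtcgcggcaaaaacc
Srebf1 (chr11:60210472-60210721, minus strand): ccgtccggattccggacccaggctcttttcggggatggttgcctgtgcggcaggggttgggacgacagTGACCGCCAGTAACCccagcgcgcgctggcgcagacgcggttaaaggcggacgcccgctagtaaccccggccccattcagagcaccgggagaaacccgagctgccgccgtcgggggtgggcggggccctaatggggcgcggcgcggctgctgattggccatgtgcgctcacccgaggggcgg
Fasn (chr11:120824548-120824797, minus strand): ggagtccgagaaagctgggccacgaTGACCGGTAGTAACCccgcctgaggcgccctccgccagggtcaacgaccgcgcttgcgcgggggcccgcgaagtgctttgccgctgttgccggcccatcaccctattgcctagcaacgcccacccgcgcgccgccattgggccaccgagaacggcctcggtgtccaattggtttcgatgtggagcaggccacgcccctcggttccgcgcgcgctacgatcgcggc

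The match runs from 67 to 53 bases before the start in Abca1, from 182 to 168 in Srebf1 and from 225 to 211 in Fasn, and its letters are identical in Abca1 and Fasn. The stricter pattern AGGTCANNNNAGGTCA is in 0.0152% of the windows. The spacing known for PPAR gamma, AGGTCA repeated after 1 base, is in 0.0396%. Neither is in a member's window. The single motif AGGTCA, which is part of both, is in 16.3% of the windows and in those of Plin2 and Pparg. A match describes these letters only.

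Values are the authors' normalised read counts per transcript, which are whole reads divided by a library factor. Library totals were 4226751 to 6998223 reads. Rnf2, the gene of Ring1b, had control and OHT values of 666 and 802 in NT, 896 and 856 under HOXA9, 990.4 and 771 under PML-RARa and 769.8 and 767 under MLL-AF9. The whole-transcript count therefore shows no loss, and the labels do not say which part is deleted, so libraries are named by treatment. Ring1, the gene of Ring1a, stood at 109 to 191 in control and 23.8 to 77.8 in OHT libraries and fell with OHT (mean log2 ratio -1.81, limma adjusted p = 0.040), although the labels give Ring1a-/- for both. The Cdkn2a transcripts stood at 18.0 to 67.2. These whole-transcript counts, too, cannot check a deletion of unknown extent. Of 12 macrophage marker genes, 10 rose with OHT by limma on log2(value + 1) with the context as a block (adjusted p under 0.05; 678 of 10599 transcripts, or 6.40%, were called higher and 7.48% lower). The marker lists were chosen with earlier results of these data known, so these calls are a description. The summed macrophage markers were 1672 to 4389 in the control and 10559 to 21540 in the OHT libraries. Their ratio of OHT over control was 3.25 in NT, 4.91 under HOXA9, 3.45 under PML-RARa and 10.1 under MLL-AF9. The summed neutrophil markers were lower with OHT in every pair, with ratios of 0.466 in NT, 0.736 under HOXA9, 0.402 under PML-RARa and 0.902 under MLL-AF9, though none of 8 passed the test. Single neutrophil markers were mixed under MLL-AF9, where Ltf (log2 ratio 1.99), S100a8 (0.36) and Camp (0.03) were higher and the others lower. Ltf was also higher under PML-RARa (0.51). Of 9 stem and progenitor markers tested, Myb, Erg and Cebpa fell and none rose; their sum, in which Gata2 weighs heavily, had ratios of 0.785 to 1.03. In these bulk samples, more cells of a type and more RNA per cell cannot be told apart, and the part of these marker changes in the results below was not tested.

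The receptors themselves were barely counted. Nr1h3, which encodes LXR alpha, has the transcripts NM_001177730 and NM_013839, with 1 to 2 and 1 to 3 reads in a library. An entry of 1 is the lowest in the tables and may stand for 0 or 1 read. The Pparg transcript NM_011146 had 1 to 3 reads. The other, NM_001127330, had 7 to 26 reads, with values of 9.93, 8.30, 21.1 and 7.41 in the control libraries (NT, then HOXA9, PML-RARa, MLL-AF9) and of 9.35, 19.0, 14.3 and 35.5 in the OHT libraries. Only in MLL-AF9 and HOXA9 did the counting interval of its ratio lie above 1, at 4.79 (95% exact binomial interval 2.02 to 13.1) and 2.29 (1.03 to 5.44). Intervals here and below cover counting error alone. Both genes have more than 1 RefSeq transcript in the tables, and how the authors assigned reads shared between transcripts is not given in the sources used here, so these low values may not give the level of either receptor. These 4 rows fall under the mean value of 20 used as a filter, and 7 rows, 1 for each other gene, passed it.

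Abca1 and Abcg1, the cholesterol efflux pumps, were higher with OHT in every context. Abca1 (NM_013454) stood at 178 in NT, 129 under HOXA9, 387 under PML-RARa and 3.18 under MLL-AF9 without OHT. With OHT it stood at 1135, 2897, 1277 and 881 in the same order. The groups do not overlap, and the MLL-AF9 control library, with 3 reads, is far below the other 3 controls.

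The ratio of OHT over control for Abca1 was 6.38 in NT (5.51 to 7.42), 22.5 under HOXA9 (19.2 to 26.6), 3.30 under PML-RARa (2.94 to 3.71) and 277 under MLL-AF9 (94.5 to 1349). Over the 4 contexts the log2(value + 1) ratio was 4.15 ± 2.64 (mean ± SD, n = 4). Among the control libraries Abca1 was ordered PML-RARa, NT, HOXA9, MLL-AF9, and no neighbouring counting intervals overlap (NT from 155 to 203, HOXA9 from 109 to 151).

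Abcg1 (NM_009593) stood at 592, 967, 1219 and 239 in the control libraries (NT, then HOXA9, PML-RARa, MLL-AF9). The OHT libraries held 1405, 1962, 1684 and 1465. All 4 OHT values lie above all 4 control values, and they differ among themselves by 1.40 times against 5.09 times among the controls. The ratio ran from 1.38 under PML-RARa (1.28 to 1.49) to 6.12 under MLL-AF9 (5.30 to 7.10), with a log2 mean of 1.33 ± 0.91 (SD, n = 4).

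**Figure D1:**
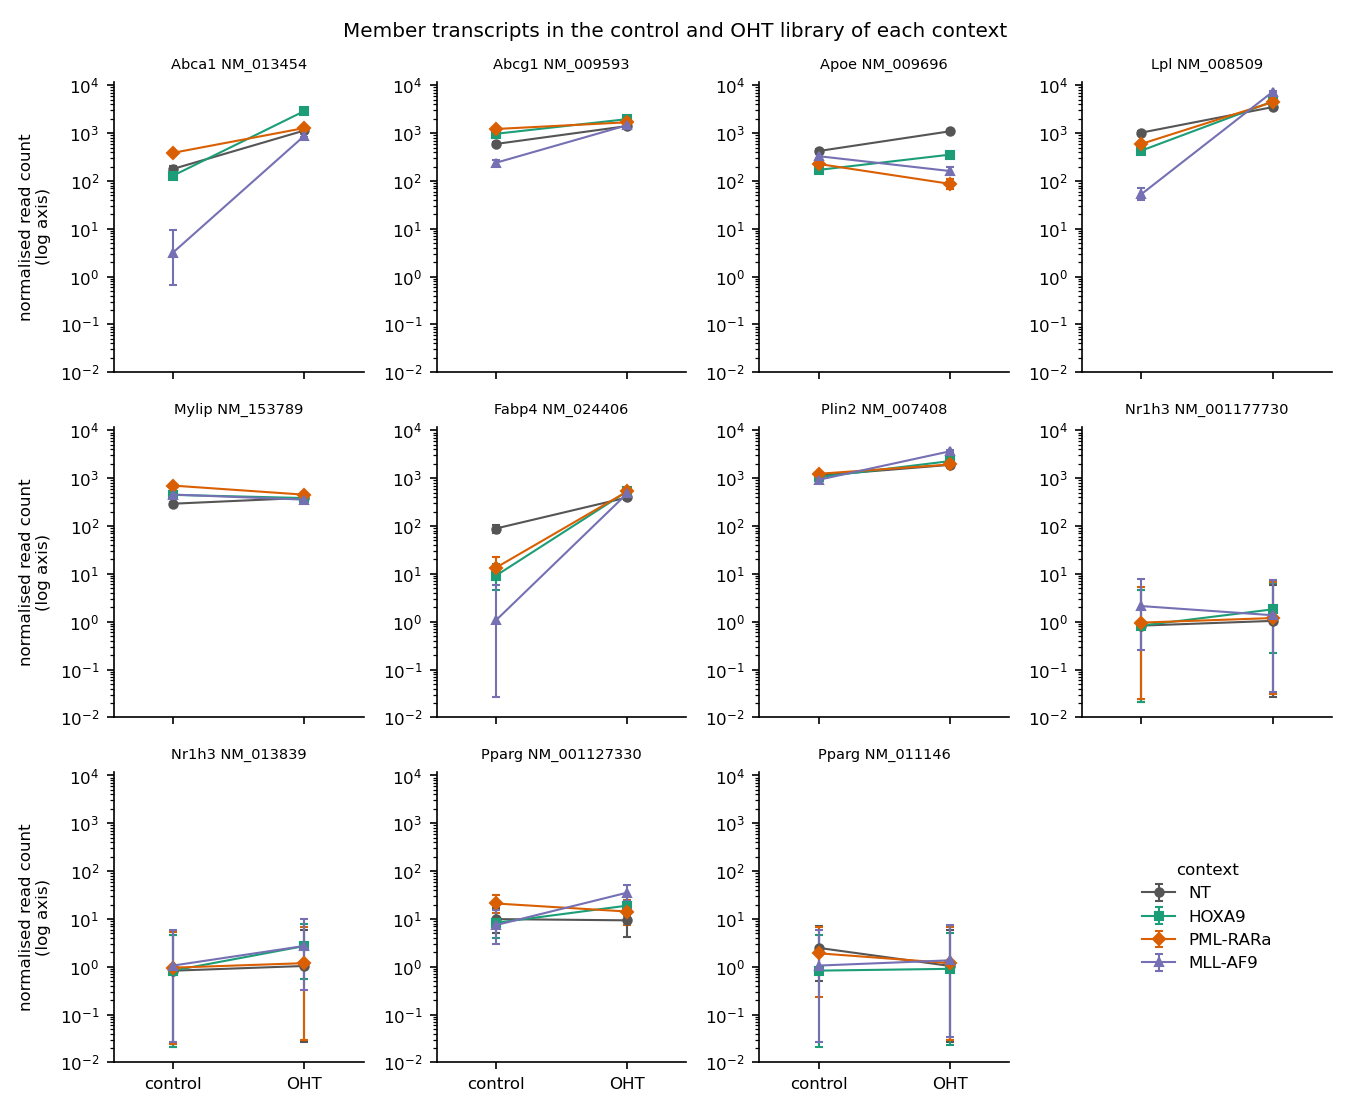
Normalised read count (log axis) of each of the 11 member transcripts in the control and OHT library of the 4 contexts; bars are 95% Poisson intervals of the reads. Lines for Abca1, Lpl and Fabp4 fan out from spread control values (3.18 to 387 for Abca1) to closer OHT values, those for Apoe cross, and both Nr1h3 transcripts lie at 1 to 3 reads.

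Apoe, which encodes the lipoprotein that accepts cholesterol from these pumps, went opposite ways. Its values (NM_009696) without OHT were 422 in NT, 170.2 under HOXA9, 227 under PML-RARa and 329 under MLL-AF9. With OHT they were 1092, 355, 86.9 and 161. Apoe was thus higher with OHT in NT and HOXA9 and lower in PML-RARa and MLL-AF9, and the groups overlap.

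The Apoe ratio was 2.59 in NT (2.33 to 2.88) and 2.08 under HOXA9 (1.76 to 2.48). It was 0.383 under PML-RARa (0.291 to 0.500) and 0.489 under MLL-AF9 (0.392 to 0.606). The log2 mean over contexts was 0.01 ± 1.41 (SD, n = 4), a mean that hides the split. The macrophage marker sum was higher with OHT in all 4 contexts, so Apoe moved against it in 2 of them. Among the markers in that sum, Cd14 was also lower with OHT under PML-RARa (log2 ratio -0.74). The other 11 markers were higher in all 4 contexts.

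Lpl encodes lipoprotein lipase, the secreted enzyme that frees fatty acids from lipoproteins. Its transcript (NM_008509) stood at 1023 in NT, 431 under HOXA9, 595 under PML-RARa and 52.9 under MLL-AF9 without OHT. With OHT it stood at 3505, 4601, 4462 and 7367. The groups do not overlap, and the MLL-AF9 pair holds both the lowest and the highest of the 8 values.

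By rank, Lpl was transcript 1787, 4496, 3451 and 8384 of 19353 in the control libraries (NT, then HOXA9, PML-RARa, MLL-AF9) by value. With OHT it was transcript 62, 20, 40 and 1, so that in the MLL-AF9 OHT library no transcript had a higher value. These ranks are not corrected for transcript length. Per kilobase, Plin2 (1937) stood above Lpl (1790) in the MLL-AF9 OHT library. The Lpl ratios were 3.42 (3.21 to 3.66), 10.7 (9.76 to 11.7), 7.50 (6.88 to 8.17) and 139 (105 to 188), and the log2 mean was 3.80 ± 2.30 (SD, n = 4). Reads reached 1.31 per base of Lpl in the MLL-AF9 OHT library, where 2.12 is the highest of any transcript in the series. If identical reads were removed, which is not given in the sources used here, the Lpl ratios can be compressed and its ranks changed.

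Mylip encodes the ubiquitin ligase IDOL, which marks the LDL receptor for degradation and is known as an LXR target. The transcript (NM_153789) stood at 293, 448, 700.4 and 455 in the control libraries (NT, then HOXA9, PML-RARa, MLL-AF9). The OHT libraries held 389, 385, 452 and 356. The groups overlap, with a higher value in NT (ratio 1.33, 1.14 to 1.54) and lower values in HOXA9 (0.858, 0.754 to 0.976), PML-RARa (0.646, 0.569 to 0.732) and MLL-AF9 (0.782, 0.668 to 0.914). The log2 mean was -0.20 ± 0.44 (SD, n = 4), less than the spread between contexts. Mylip thus did not share the direction of the efflux pumps in the 3 contexts with an introduced gene.

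Fabp4, a fatty acid carrier of macrophages and fat cells, had the largest mean ratio of the 7. Its values (NM_024406) without OHT were 88.5 in NT, 9.13 under HOXA9, 13.4 under PML-RARa and 1.06, the lowest entry, in MLL-AF9. With OHT they were 396, 532, 527 and 480. The OHT values lie within 1.34 times of each other, while the control values span 83.6 times.

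The Fabp4 ratio was 4.47 in NT (3.60 to 5.59), 58.3 under HOXA9 (32.3 to 117), 39.4 under PML-RARa (23.2 to 72.6) and 454 under MLL-AF9 (80.9 to 17963). The last rests on 352 reads against an entry of 1. The log2 mean was 5.23 ± 2.36 (SD, n = 4). In the order of control levels, HOXA9 (4.6 to 16.3) and PML-RARa (7.3 to 22.5) did not differ beyond counting error.

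By the root mean square difference of the 4 log2 ratios, the transcript most like Fabp4 was the interferon-induced Rsad2 (0.54). Next came the complement genes C1qc (0.63) and C1qb (0.65), both among the macrophage markers used here, and the interferon-induced Usp18 (0.67). Each was compared over the same 4 pairs of libraries, and no test applies. In the MLL-AF9 control library Fabp4 and C1qc stood at the lowest entry and C1qb at 3.18, so their MLL-AF9 ratios depend on the lowest counts. No such neighbours are given for Nr1h3 and Pparg, whose counts are too low.

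Plin2 encodes perilipin 2, the coat protein of lipid droplets. Its values (NM_007408) were close together without OHT, at 1137 in NT, 1051 under HOXA9, 1236 under PML-RARa and 925 under MLL-AF9. With OHT they were 1901, 2279, 1936 and 3658. The groups do not overlap. The ratio was 1.67 in NT (1.56 to 1.80), 2.17 under HOXA9 (2.03 to 2.32), 1.57 under PML-RARa (1.46 to 1.69) and 3.95 under MLL-AF9 (3.66 to 4.27), and the log2 mean was 1.12 ± 0.61 (SD, n = 4). Reads reached 1.42 per base, so these ratios too can be compressed if identical reads were removed.

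**Figure D2:**
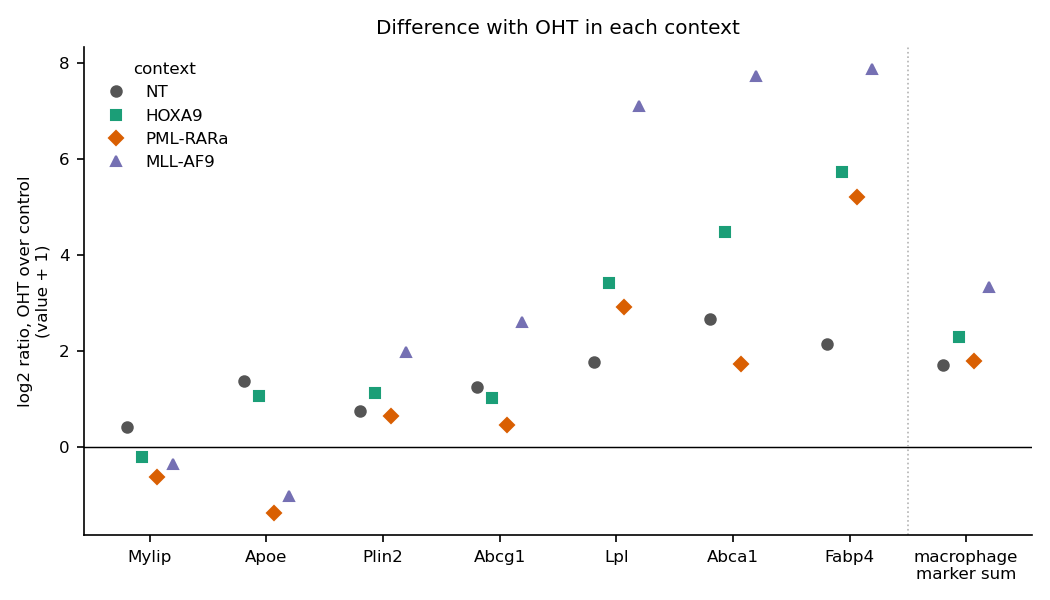
Log2 ratio of OHT over control, on the value + 1 scale, in each of the 4 contexts for the 7 members past the filter on low values, beside the same for the summed macrophage markers. Points for MLL-AF9 are highest for Plin2, Abcg1, Lpl, Abca1 and Fabp4 (7.87 for Fabp4), and those for Apoe fall on both sides of 0.

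Counted by a fixed size, at least 2-fold on the log2(value + 1) scale with a value of 20 or more in the higher library, 5 of 7 member rows were higher with OHT in NT (13.5% of all transcripts with such a value). In HOXA9 it was 6 of 7 (9.04%), in PML-RARa 3 of 8 (8.83%) and in MLL-AF9 6 of 8 (14.5%). Abca1, Lpl and Fabp4 were counted in all 4 contexts. Apoe alone was counted as lower: no member in NT (8.64% of all transcripts) or HOXA9 (6.10%), and Apoe in PML-RARa (13.5% of all transcripts) and MLL-AF9 (15.6%). In MLL-AF9 the count of lower members was 0 with centred pairs or a pseudocount of 10. In 5 of the 7 rows past the filter all OHT libraries were above all controls, as in 8.28% of all tested transcripts. The median of the mean log2 ratios was 1.33 over those 7 and -0.03 over all 10599. Because the members were chosen on this contrast, nothing is read from these counts.

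The spread between contexts was smaller with OHT for most members. The highest over the lowest of the 4 values was smaller with OHT for 5 of 7 members, and for 45.1% of all tested transcripts. It went from 122 to 3.29 for Abca1, from 19.3 to 2.10 for Lpl and from 2.39 to 1.27 for Mylip, beside Fabp4 and Abcg1 above. The MLL-AF9 control library set much of this: without the MLL-AF9 pair the spread went from 3.004 to 2.553 for Abca1, from 2.38 to 1.31 for Lpl, from 9.69 to 1.34 for Fabp4 and from 2.06 to 1.40 for Abcg1. It was then still smaller with OHT for the same 5 of 7 members, and for 46.4% of all tested transcripts. The log2 means without that pair were 2.96 for Abca1, 2.70 for Lpl and 4.35 for Fabp4. Over all 4 contexts the spread was larger with OHT for Plin2, from 1.34 to 1.92, and for Apoe, from 2.48 to 12.6. Abca1, Abcg1, Lpl, Fabp4 and Plin2 were lowest in the MLL-AF9 control library among the 4 controls, as were 25.6% of all tested transcripts. The macrophage marker sum was also lowest there, at 1672 against 3057 to 4389 in the other controls, and its part in those low levels was not tested. The members were chosen on OHT over control, a choice that can favour low control values. Nothing is therefore read from these spreads and counts beside the shares of all transcripts.

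Per kilobase of transcript, Plin2 was the most abundant member in the control libraries, with a mean level of 576 over the 4. It was followed by Apoe (204), Mylip (155), Abcg1 (129), Lpl (128), Fabp4 (31.3) and Abca1 (17.0). With OHT the mean levels per kilobase were 1294 for Plin2, 1211 for Lpl, 540.0 for Fabp4, 301 for Apoe, 279 for Abcg1, 151 for Abca1 and 129 for Mylip. The order differed between contexts. In NT, Lpl was already the third of the 7 without OHT (249 per kilobase), and Fabp4 (442) stayed below Apoe (776) with OHT. With OHT, Lpl (1084) was above Plin2 (1026) under PML-RARa, and Fabp4 was next after those genes under HOXA9, PML-RARa and MLL-AF9.

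Set beside the summed macrophage markers of the same library, the members differed. Fabp4 was 2.54% of that sum in the NT control library and 3.49% with OHT. Its share went from 0.208% to 2.47% under HOXA9, from 0.438% to 4.99% under PML-RARa and from 0.0633% to 2.85% under MLL-AF9. Lpl went from 29.3% to 30.9% in NT, from 9.82% to 21.4% under HOXA9, from 19.5% to 42.3% under PML-RARa and from 3.17% to 43.7% under MLL-AF9. Abca1 had a higher share with OHT in NT, HOXA9 and MLL-AF9 and nearly the same in PML-RARa (12.6% and 12.1%). Abcg1, Apoe, Mylip and Plin2 had a lower share with OHT in all 4 contexts, for example from 55.4% to 21.7% for Plin2 under MLL-AF9. A higher share of the sum was not particular to these members, since the abundant markers carry the sum. Among the markers, C1qa, C1qb, C1qc, Marco and Siglec1 also had a larger ratio than the sum in all 4 contexts. The mean log2 ratios of single markers ran from 0.52 for Cd14 to 5.63 for Marco, a range that holds the 5.23 of Fabp4. The shares compare values per transcript, not molecules.

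**Figure D3:**
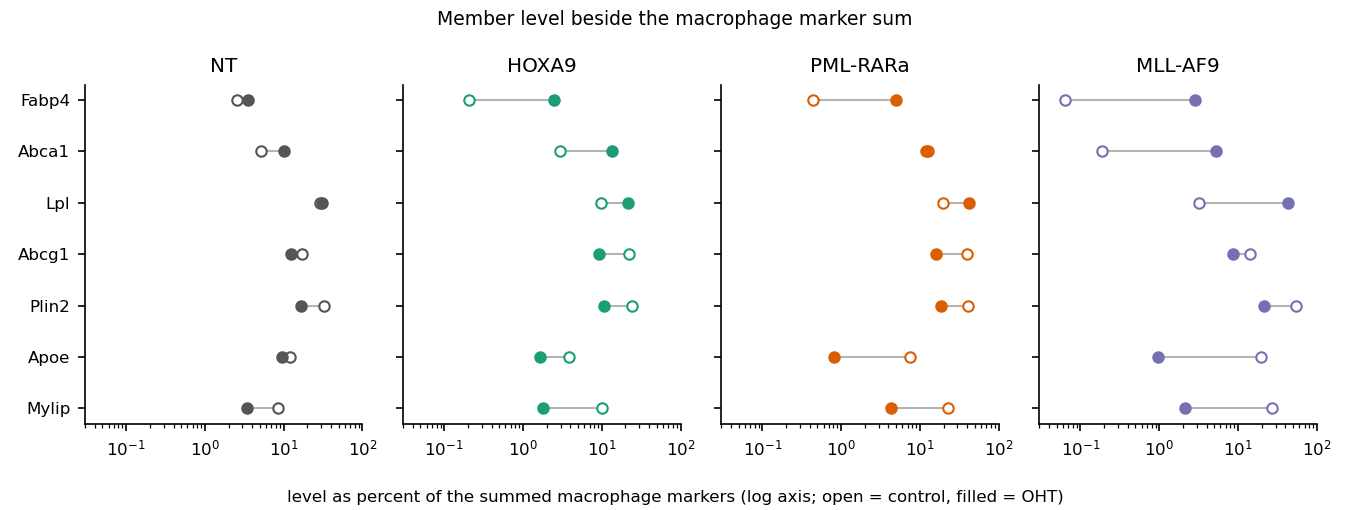
Value of each of the 7 members as a percent of the summed values of 12 macrophage markers in the same library (log axis), 1 panel per context; open points are control and filled points OHT libraries. Fabp4 and Lpl lie further right with OHT in every panel, while Abcg1, Plin2, Apoe and Mylip lie further left.

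Other cells that use Fabp4, Lpl and Plin2 were looked for by their markers. Of 8 adipocyte markers 6 had a row, none of their 8 transcripts reached the filter, and the sum was 27.7 to 34.9 in control and 20.8 to 23.2 in OHT libraries. The defining adipocyte gene Adipoq had at most 2 reads in any library, and Cfd, the highest of these transcripts, reached 18.0 and was lower with OHT. Of 8 endothelial markers 6 had a row, and the sum was 90.0 to 146 in control and 132 to 332 in OHT libraries. Of 4 tested, Kdr and Flt4 rose by limma, while Cdh5, the defining endothelial cadherin, stayed at a value under 7 in every library. The list was split: Pecam1 (mean log2 ratio -0.47) and Tie1 (0.08) did not pass, and Egfl7 (-0.83), under the filter, was lower in every context. Their part in the Fabp4 difference was not tested.

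The wider lipid pathway was described with a list of 82 genes outside the members, of which 75 had a row and 52 passed the filter, with 53 transcripts. By limma on log2(value + 1) with the 4 contexts as pairs, 8 of the 53 rose and 3 fell, against 6.40% and 7.48% of all transcripts. The median of their mean log2 ratios was 0.18, and -0.03 over all 10599 transcripts. The list was chosen with earlier results of these data known, so these shares and the adjusted p-values below are a description. The calls need all 4 pairs: limma called 0 to 1 higher and none lower when any 1 pair was left out, with 11 to 17 higher and 5 to 8 lower at an unadjusted p under 0.05.

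Among known LXR targets besides the members, 2 of 12 tested rose and 2 fell. Mertk, a macrophage receptor for dying cells, rose by 4.65 ± 0.65 (mean log2 ratio ± SE, limma adjusted p = 0.035), and Cd5l, a macrophage survival factor, by 3.92 ± 0.77 (adjusted p = 0.043). Cd5l was barely counted without OHT, at 4.14 in NT and at the lowest entry under HOXA9, PML-RARa and MLL-AF9. With OHT it stood at 115 in NT, 152 under HOXA9, 8.33 under PML-RARa and 10.9 under MLL-AF9, so its ratios rest on low counts. The stearoyl-CoA desaturase genes Scd1 (-1.40 ± 0.23, limma adjusted p = 0.037) and Scd2 (-0.54 ± 0.11, limma adjusted p = 0.044) fell. Scd1 went from 1628 to 697 in NT, from 1493 to 327 under HOXA9, from 2682 to 1325 under PML-RARa and from 670.3 to 297 under MLL-AF9. The cholesterol pumps and the desaturases, both classes of LXR target, therefore stood on opposite sides of 0 in all 4 contexts.

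The promoter pattern shown above for Abca1 is shared by genes with other values. Fasn, fatty acid synthase, had -0.76 ± 0.19 (mean log2 ratio ± SE, limma adjusted p = 0.061), with lower OHT values in 4 of 4 contexts. Srebf1, a master regulator of lipid synthesis named here for its promoter and outside the naming rule, had -0.39 ± 0.10 (limma adjusted p = 0.064), also lower in 4 of 4. Neither passed the test. Acsl3, which also holds the pattern, had values of only 1.04 to 2.73 and fell under the filter, so no direction is read for it.

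The 4 other targets named did not pass. Arl4c stood 1.95 ± 0.49 higher with OHT on the log2 scale (mean ± SE; limma adjusted p = 0.060), the phospholipid transfer protein gene Pltp 1.52 ± 0.79 (adjusted p = 0.22) and Apoc2, the cofactor of lipoprotein lipase, 1.16 ± 0.39 (adjusted p = 0.11). The log2 mean of Tgm2 was -1.01 ± 0.29 (limma adjusted p = 0.075). Rxra, the partner receptor of both LXR and PPAR gamma, stood at 134 to 1264 in control and 888 to 1570 in OHT libraries, with a log2 mean of 1.68 ± 0.47 (limma adjusted p = 0.073). None of 9 tested receptor and cofactor transcripts passed. Nr1h2, the other LXR gene, is named here for that reason and lies outside the naming rule. Its values were only 2.38 to 4.24, under the filter, so it was not tested and no direction is read for it.

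Uptake and lysosomal sterol genes held most of the other rises. Of 6 tested uptake genes the scavenger receptor gene Msr1 (4.37 ± 0.56, limma adjusted p = 0.035) and the lipoprotein receptor gene Lrp1 (2.23 ± 0.45, limma adjusted p = 0.045) rose. The oxidised LDL receptor gene Olr1 had -1.21 ± 0.44 (limma adjusted p = 0.12). Of 5 tested lysosomal genes Npc1 (0.93 ± 0.14, limma adjusted p = 0.036) and Npc2 (0.58 ± 0.13, limma adjusted p = 0.049), which carry cholesterol out of lysosomes, and Scarb2 (1.03 ± 0.18, limma adjusted p = 0.039) rose. The median over these 5 was 0.58.

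Ch25h, which makes the oxysterol 25-hydroxycholesterol and is also interferon-induced, rose by 4.72 ± 0.70 (limma adjusted p = 0.036). It stood at 4.14, 5.81, 8.61 and 1.06 in the control libraries (NT, then HOXA9, PML-RARa, MLL-AF9) and at 53.0, 226, 97.6 and 278 in the OHT libraries. The other 2 tested oxysterol enzyme genes did not pass.

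Among lipid droplet and PPAR target genes outside the members, 1 transcript passed. Of 8 tested lipid droplet genes G0s2, which encodes an inhibitor of the droplet lipase ATGL, fell (-1.86 ± 0.31, limma adjusted p = 0.037) and none rose, with a median of -0.15. None of 9 tested PPAR target genes passed, and their median was 0.17. Fabp3, the only other fatty acid binding protein gene past the filter, had 2.42 ± 1.17 (limma adjusted p = 0.20), with values, control then OHT, of 6.62 and 95.6 in NT, 55.6 and 180.1 under HOXA9, 211 and 86.9 under PML-RARa and 5.29 and 311 under MLL-AF9.

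**Figure D4:**
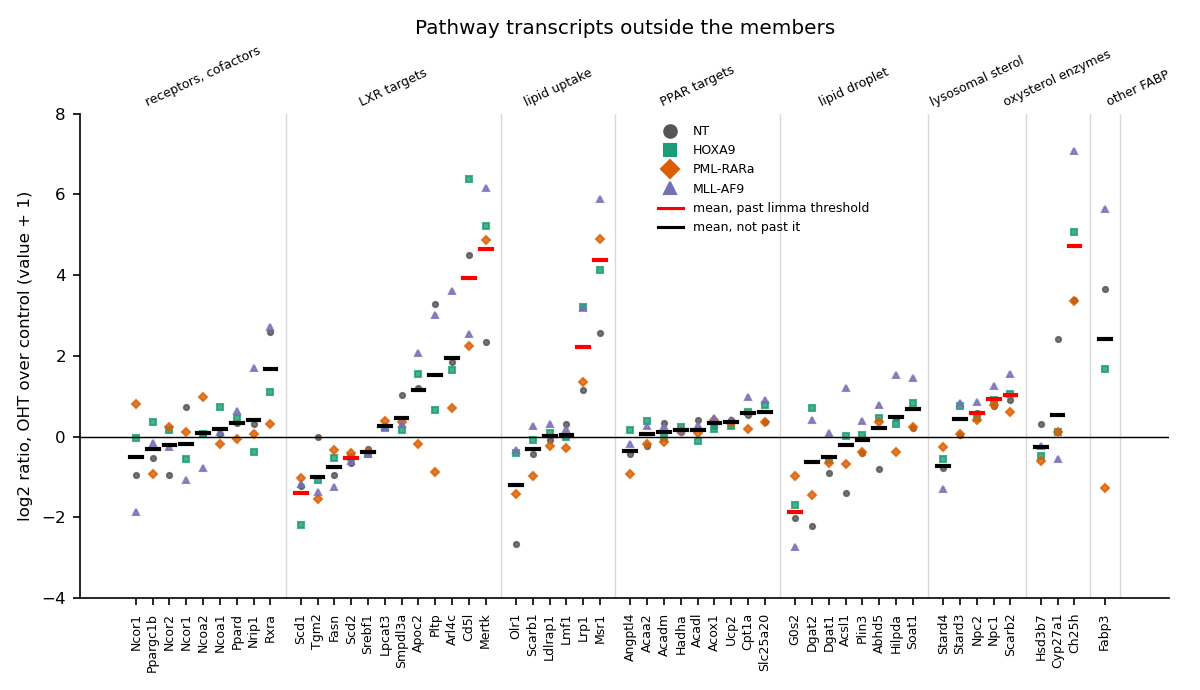
Log2 ratio of OHT over control (value + 1) of 53 transcripts of lipid pathway genes outside the members, by group; symbols are the 4 contexts and bars their mean, red where past the limma threshold. Red bars lie above 0 for 8 transcripts, Mertk, Ch25h and Msr1 highest, and below 0 for Scd1, Scd2 and G0s2.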

How the data were processed

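The deposited tables, 1 per context, list the control and OHT library of that context. Per the file headers, the signal columns are base means: read counts that the authors divided by a factor for each library. The submitters' processing notes name TopHat, DESeq and mm9, without versions; the read counter is not given in the sources used here. The deposited fold ratio, its log2 and its p-value, which compare 1 library with 1 library, were not used. Every value is a whole multiple of its library's lowest (100% within 0.02), which gave back whole reads; 15.1% to 20.0% of rows per library stand at that lowest entry.

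The test, limma 3.58.1 in R 4.3.3 (two-sided, Benjamini-Hochberg), ran on log2(value + 1) of all 10599 transcripts whose values averaged 20 or more, with the context as a block. It was checked on simulated counts in which a changed transcript differed by the same ratio in every context. Members' ratios varied between contexts, and the check does not cover such changes. Contexts serve as replicates, so p reflects how far contexts differ, and the labels do not say whether libraries came from separate mice. A ratio on this scale understates changes of low values. Alternatives were a pseudocount of 10, other filters and scalings, no block, each pair left out, edgeR 4.0.16 (1276 transcripts higher, 959 lower) and DESeq2 1.42.0 (1768 and 1362) on the recovered reads. Transcript lengths came from GENCODE M21 by RefSeq accession, and promoter windows from RefSeq GRCm38.p6; no mm9 coordinates are used. Pathway genes named are those past the test and the 8 with the largest mean ratios among the rest. The members and lists were chosen with earlier results of these data known.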

Additional observations from a re-analysis of the deposited data

Results flagged for a closer look

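The members past the filter and the tested pathway transcripts were compared between contexts. Of these, 3 genes were at least 2-fold higher with OHT in 1 context and at least 2-fold lower in another. The difference was not tested because each context has 1 pair of libraries. The share of all transcripts with such opposite differences was not counted, so nothing is read from the number of genes. The log2 ratio of Apoe differed by 2.74 between NT and PML-RARa, with NT and HOXA9 above 0 and PML-RARa and MLL-AF9 below. Its direction in each context held with centred pairs, with TMM scaling and with a pseudocount of 10. Fabp3, a fatty acid carrier related to Fabp4, differed by 6.91 between MLL-AF9 (5.63) and PML-RARa (-1.27). Acsl1, which activates fatty acids and is named here for this difference alone, differed by 2.60 between MLL-AF9 (1.22) and NT (-1.39). No cause was tested.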

How the results depend on the processing

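For the pathway list, the number of higher calls was 8 in the report, 4 with no filter on low values (3 of them among the 8), 13 by edgeR and 17 by DESeq2 (all 8 among both), and 0 to 1 with 1 pair left out. The number of lower calls was 3 in the report, 1 with no filter (none of the 3), 8 by DESeq2 (all 3 among them), 0 by limma without the context as a block (6 at an unadjusted p under 0.05), and 0 with any pair left out. With no filter more transcripts were tested (86 of the list), and with a pair left out fewer samples; the cause of the other shifts was not tested. All 8 higher and all 3 lower calls kept their sign under each of these alternatives in which they were tested. Over all transcripts edgeR called 1276 higher and 959 lower, against 678 and 793 by limma, and TMM scaling gave 774 and 760. Counts of members at least 2-fold higher stayed within 1.5 times of the counts above in every alternative. The count of members at least 2-fold lower, whose alternatives were added after seeing the data, went from 1 to 0 under MLL-AF9 with centred pairs and with a pseudocount of 10, where Apoe had log2 ratios of -0.92 and -0.99. Members' mean ratios moved by less than 1 SD in all 77 alternatives. Of 49 for the 7 members past the filter, 2 changed sign, both for Apoe: -0.45 when NT was left out and -0.34 when HOXA9 was. Over all tested transcripts the median log2 ratio was -0.10 in MLL-AF9 and between -0.09 and 0.03 elsewhere, and centring on it changed no member's sign in any context. Low reads limit Nr1h3 and Pparg, the pathway genes Cd5l and Ch25h in the control libraries, and the Abca1 and Fabp4 ratios in MLL-AF9. With a pseudocount of 10 the Abca1 and Fabp4 ratios in MLL-AF9 were 6.08 and 5.47 on the log2 scale.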
